A study of Mus musculus with 30 samples.

Results

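The spleen of a mouse with collagen-induced arthritis (CIA), an autoimmune joint disease raised in mice by immunization against type II collagen, was set against the spleen of a healthy mouse. The 2 libraries are those of the 8-organ pilot table whose column names start with the spleen label, 1 per state, of 30 libraries in all. They hold 699 of the 8282 cell barcodes of that table, 532 from CIA mouse S1 and 167 from healthy mouse H6. Both mice were male DBA1/J animals, 8 to 12 weeks old by the study's methods. S1 had received 100 µg of bovine collagen II in complete Freund's adjuvant by intradermal injection, with a booster in incomplete Freund's adjuvant on day 20, and carried an arthritis score of 8. H6 was a control with a score of 0, given PBS by the methods, so collagen and adjuvant differed together between the mice. Spleens were frozen, thawed and pressed through a 70 µm strainer, and red cells were lysed for 5 minutes before single cells were caught on Seq-Well arrays, which barcode the polyA RNA of each cell in a microwell. The table's values are sums of molecules over a barcode and its nearest neighbours, here called units, and each library was scaled to units per 1000000 (UPM). With 1 library per state there is no replicate and no test, and every difference below is between these 2 libraries. The titles also end in different suffixes, 2CIA for S1 and CIA for H6, so the state, the mouse and the library suffix cannot be told apart in spleen.

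The spleen filters blood through its red pulp and holds B and T lymphocytes in its white pulp. In mice, unlike in healthy adult humans, the red pulp keeps a capacity to form blood cells, and under inflammation, infection or blood loss it can house erythroid and granulocyte precursors, which is called extramedullary haematopoiesis. An erythroid precursor passes through a dividing stage marked by GATA1 and KLF1, then fills with haemoglobin, while a neutrophil precursor makes its granules in order, first the primary (azurophilic) granules with myeloperoxidase and elastase, then the secondary granules with lactoferrin and cathelicidin.

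The promoters of some of the leading genes of both programmes are printed here because the erythroid and granule genes were higher as groups in the CIA spleen. They were taken from RefSeq on build GRCm38.p6, from 250 bases before to 50 after the annotated start, and are written 5′ to 3′ on the gene's strand. For the erythroid genes, capitals mark AGATAA, or the same letters with T first, with G last or with both (GATA motifs), and CCACACCC (a CACC box, of the kind KLF1 reads), on either strand. They are Hbb-bs at chr7:103827879-103828178 (minus strand), which encodes the adult beta globin, Hba-a1 at chr11:32283422-32283721 (plus strand), an alpha globin, Alas2 at chrX:150547167-150547466 (plus strand), the first enzyme of erythroid haem synthesis, and Klf1 at chr8:84901732-84902031 (plus strand), an erythroid transcription factor.
Hbb-bs: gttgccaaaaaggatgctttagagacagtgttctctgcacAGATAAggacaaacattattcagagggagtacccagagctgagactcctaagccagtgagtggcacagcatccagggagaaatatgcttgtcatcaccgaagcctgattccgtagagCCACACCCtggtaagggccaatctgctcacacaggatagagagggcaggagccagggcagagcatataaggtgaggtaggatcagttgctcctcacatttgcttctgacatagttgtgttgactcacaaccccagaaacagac
Hba-a1: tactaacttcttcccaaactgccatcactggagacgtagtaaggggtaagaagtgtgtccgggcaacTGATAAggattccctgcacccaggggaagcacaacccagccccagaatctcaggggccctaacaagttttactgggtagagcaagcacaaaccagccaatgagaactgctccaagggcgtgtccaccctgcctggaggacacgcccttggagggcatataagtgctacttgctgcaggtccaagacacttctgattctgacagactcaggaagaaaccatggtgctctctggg
Alas2: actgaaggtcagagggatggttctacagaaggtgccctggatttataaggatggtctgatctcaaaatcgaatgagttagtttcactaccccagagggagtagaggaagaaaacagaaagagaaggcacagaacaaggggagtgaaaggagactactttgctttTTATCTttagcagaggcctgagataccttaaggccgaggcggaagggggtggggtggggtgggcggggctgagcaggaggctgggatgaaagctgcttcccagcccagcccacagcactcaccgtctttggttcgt
Klf1: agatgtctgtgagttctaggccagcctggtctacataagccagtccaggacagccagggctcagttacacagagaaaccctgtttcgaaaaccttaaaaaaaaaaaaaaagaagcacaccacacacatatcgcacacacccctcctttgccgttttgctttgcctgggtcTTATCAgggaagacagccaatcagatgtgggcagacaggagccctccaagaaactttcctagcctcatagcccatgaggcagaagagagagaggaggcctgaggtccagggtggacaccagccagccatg

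Each of these 4 promoters held 1 GATA motif, and that of Hbb-bs also held the CACC box. For the granule genes, capitals mark TTNNGNAA on either strand, a relaxed form of the site of C/EBP factors, which drive granulocyte maturation. They are Ngp at chr9:110419558-110419857 (plus strand), neutrophilic granule protein, Ltf at chr9:111019042-111019341 (plus strand), lactoferrin, and S100a8 at chr3:90668821-90669120 (plus strand), a subunit of calprotectin.
Ngp: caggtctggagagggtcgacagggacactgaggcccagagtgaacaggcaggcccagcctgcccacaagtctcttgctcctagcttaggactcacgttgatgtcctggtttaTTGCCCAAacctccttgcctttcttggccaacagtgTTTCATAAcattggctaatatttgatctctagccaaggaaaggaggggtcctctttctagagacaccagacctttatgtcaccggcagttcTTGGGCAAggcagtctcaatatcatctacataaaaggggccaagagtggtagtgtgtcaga
Ltf: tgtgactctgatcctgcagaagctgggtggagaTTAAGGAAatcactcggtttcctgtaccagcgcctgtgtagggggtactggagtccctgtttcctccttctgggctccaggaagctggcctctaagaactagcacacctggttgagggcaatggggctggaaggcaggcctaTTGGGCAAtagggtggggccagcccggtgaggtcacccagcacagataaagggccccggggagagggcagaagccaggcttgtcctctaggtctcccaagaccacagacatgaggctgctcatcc
S100a8: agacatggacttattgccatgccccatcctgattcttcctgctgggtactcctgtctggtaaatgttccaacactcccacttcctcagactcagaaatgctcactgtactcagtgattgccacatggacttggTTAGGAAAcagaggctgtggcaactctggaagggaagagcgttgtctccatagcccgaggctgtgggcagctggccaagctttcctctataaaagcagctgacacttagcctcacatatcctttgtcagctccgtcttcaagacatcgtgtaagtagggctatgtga

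Ngp held 3 such matches, Ltf 2 and S100a8 1, and of the other granule promoters searched Lcn2 held 1 and Camp, Prtn3, Elane and Mpo held 0. The motifs are common. A GATA motif was present in 30.2% of 27025 promoters of this length, in 11 of the 25 promoters found for erythroid list members at least 2-fold higher in the CIA spleen, and in 13 of 29 of the corresponding granulocyte members. The C/EBP form stood in 40.7% of all promoters, in 9 of the 25 erythroid and in 16 of the 29 granulocyte ones. The CACC box was found in 3.57% of all promoters, in 1 of the 25 and in 2 of the 29. These are matches of letters only.

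Across the 5753 genes whose mean over both spleens reached 25 UPM, 781 were at least 2-fold higher in the CIA spleen (13.6%) and 1342 at least 2-fold lower (23.3%), on a scale of log2 (UPM + 10). A gene past this fold is called higher or lower below. A gene at or under 13.3 UPM in one spleen could reach the mean of 25 UPM only by being past the fold, so its direction was fixed by the filter. That held for 306 of the higher and 370 of the lower genes, and of the other 5077 genes 9.36% were higher and 19.1% lower. Where members of a list were fixed in this way, their number, or that of the other members, is given beside the list's count. The 5 most abundant genes took 4.33% of the units of the healthy and 18.5% of those of the CIA spleen. The median gene stood at -0.22, and with trimmed-mean scaling it stood at 0.13. The higher genes were 36.8% of those past the fold under total scaling, 57.6% with a trimmed mean, 57.3% with a median of ratios, 50.2% in barcodes low in globin and granule genes and 49.6% with no filter on low values. The genes that were lower were to a large part pseudogenes, 561 of 837 tested against 578 of 4558 protein-coding genes, and among protein-coding genes alone 735 were higher. Pseudogenes took 21.6% of the units of the healthy spleen and 8.51% of those of the CIA spleen, within a range of 7.09% to 44.2% over the 30 libraries. Their part in the count of lower genes outside the pseudogenes was not tested.

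The healthy library had 1161398 units and 49 distinct profiles among its barcodes, and the CIA library 4633747 units and 303 profiles, so the CIA library is the deeper by far. A gene listed at 0 in the healthy spleen may be absent or not caught. Both libraries carried lymphocyte markers, which lymph node and blood hold too. The 5 B cell markers and the 6 T cell markers checked were above 0 in each, while 0 of 4 fibroblast markers were above 0 in either, and the keratinocyte markers summed to 15.5 UPM in the healthy spleen and 3.67 in the CIA one. The 5 red pulp macrophage markers summed to 12.1 and 26.8 UPM, with 1 above 0 in the healthy spleen and 5 in the CIA one. These markers do not set spleen apart from lymph node or blood. In bulk sums of this kind, more cells of a type and more RNA per cell cannot be told apart. Of the healthy barcodes, 13 had a sequence that also occurred in another library, 0 of the CIA barcodes did, and the 2 spleens shared 0. Without those 13 the counts were 737 higher and 1345 lower.

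**Figure D1:**
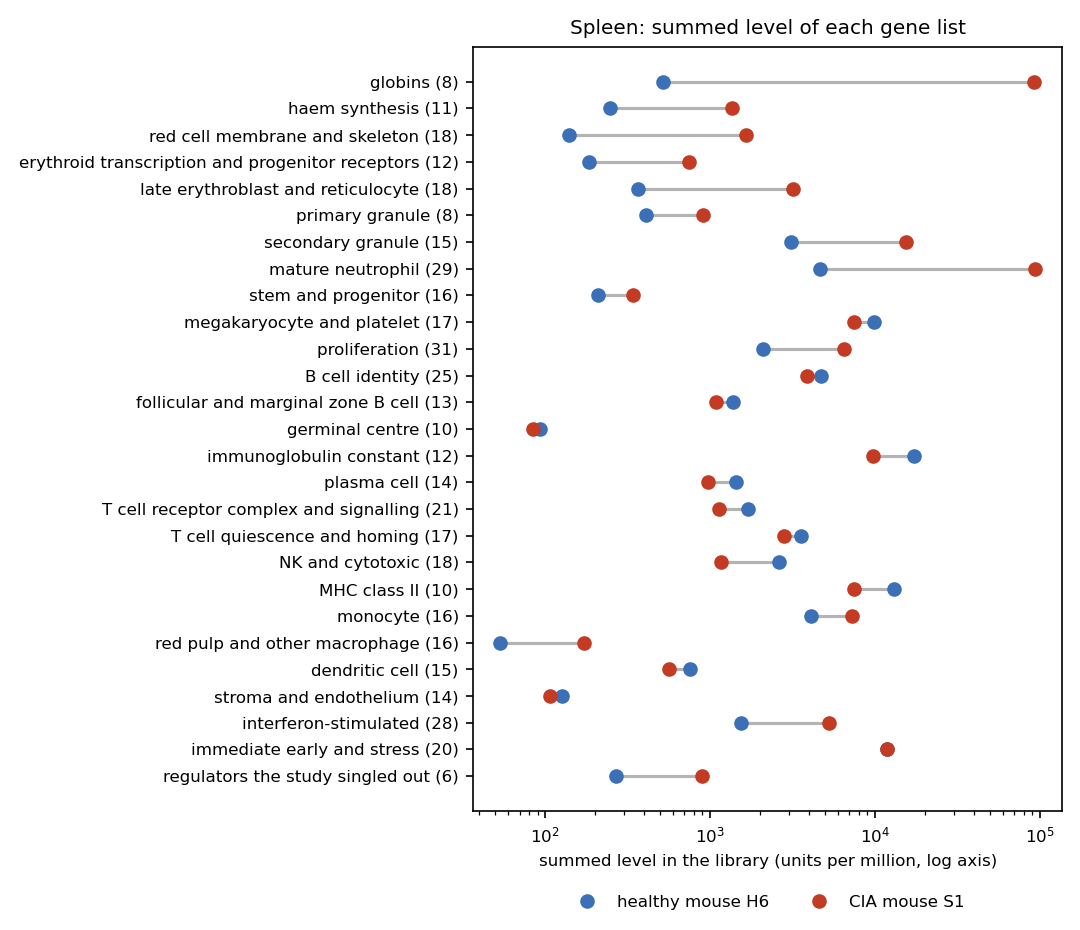
Summed level of each gene list in the healthy spleen (blue) and the CIA spleen (red), in UPM on a log axis, with the number of list genes in the table in brackets and 1 library per state, so no error bars. Globins stood at 519 and 91519 and mature neutrophil genes at 4620.3 and 93756, while B cell identity genes stood at 4714 and 3861.

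The erythroid programme showed the widest separation between the spleens. Globins, the oxygen-binding chains of haemoglobin, summed to 519 UPM in the healthy spleen and 91519 UPM in the CIA one, a 176-fold ratio and a log2 ratio of 7.46. All 5 tested globins were higher, beside 13.6% of all genes, and for 3 of the globins the filter fixed the direction. Hbb-bs stood at 421 UPM in the healthy spleen and 68104 in the CIA one, a log2 difference of 7.30. Hba-a1 stood at 89.5 and 14344 UPM, a difference of 7.17. Hbb-bt, the other adult beta globin, stood at 8.61 and 8375 UPM, a difference of 8.82, the largest of any gene named by the rule. The globin order within the CIA spleen, with Hbb-bs far above Hba-a1 and Hba-a2 at only 12.9 UPM, cannot be read between genes, because the alpha copies are nearly identical and reads may be split between them. The embryonic chains Hbb-bh1 and Hbb-y were listed at 0 in the healthy spleen and at 529.8 and 139 UPM in the CIA spleen. They resemble the adult beta chains closely enough that shared reads leave their level uncertain.

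Genes of haem synthesis and of the red cell membrane went the same way. Of 9 tested haem synthesis genes, 8 were higher and 1 lower, beside 13.6% and 23.3% of all genes. For 5 the direction was not fixed by the filter, and 4 of them were higher, beside 9.36% of all such genes. Their median was 1.82 beside -0.21 over all such genes. Alas2, the first enzyme of the path, was listed at 0 in the healthy spleen and at 188 UPM in the CIA spleen. Alad stood at 59.4 and 352 UPM and Tmem14c, a mitochondrial carrier of the path, at 43.9 and 180.0. Fech, which inserts the iron, was higher too, at 178 UPM in the CIA spleen. The exception was Slc25a38, a mitochondrial glycine carrier, at 85.2 UPM in the healthy spleen and 18.3 in the CIA one.

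Of 18 genes of the red cell membrane and skeleton, 13 were listed at 0 only in the healthy spleen. Over all genes, 15126 were above 0 in either spleen, 10307 in the healthy and 14148 in the CIA one. Among the 10 tested members 9 were higher. For 8 of these the filter fixed the direction, which leaves 1 of 2 higher, so the list is described by its summed level of 140.3 and 1645 UPM. Slc4a1, the anion exchanger band 3, was at 0 and 439.6 UPM. Aqp1, the water channel, was at 0 and 111, and Rhd, a Rhesus protein, at 0 and 72.9. Epb41 was the tested member not past the fold, at 98.2 and 126 UPM.

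Late erythroblast and reticulocyte genes summed to 365 and 3189.6 UPM. All 14 tested were higher, beside 13.6% of all genes, and 8 of the 14 were fixed by the filter. The other 6 were higher too, beside 9.36% of all genes not fixed, with a median of 2.42 beside -0.21. Car2, carbonic anhydrase 2, stood at 69.7 UPM in the healthy spleen and 864 in the CIA one. Prdx2, the main peroxiredoxin of red cells, stood at 87.0 and 501 UPM, and Blvrb, a biliverdin reductase, at 42.2 and 329. Hemgn was at 5.17 and 158 UPM, and Slc25a37, the mitochondrial iron importer, at 52.5 and 266. Genes of the less mature stage stood at lower levels and did not all go one way. Of 7 tested erythroid transcription factors and progenitor receptors, 4 were higher and 0 lower, beside 13.6% and 23.3% of all genes. The filter fixed the direction of 3 of the 4. Tfrc, the transferrin receptor, stood at 34.4 and 201 UPM. Car1, Tal1 and Klf1 were at 0 in the healthy spleen and at 128, 60.9 and 36.0 UPM in the CIA spleen, and Gata1 and Epor, the erythropoietin receptor, were at 0 and 17.7 and 0 and 25.9 UPM. Of the 4 members not fixed by the filter Tfrc alone was past the fold, and the median was 0.40. Lmo2, which B cells and progenitors also use, stood at 73.2 and 101 UPM, Ldb1 at 34.4 and 48.3, and Myb, a factor of early progenitors, ran the other way at 43.1 and 19.9.

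**Figure D2:**
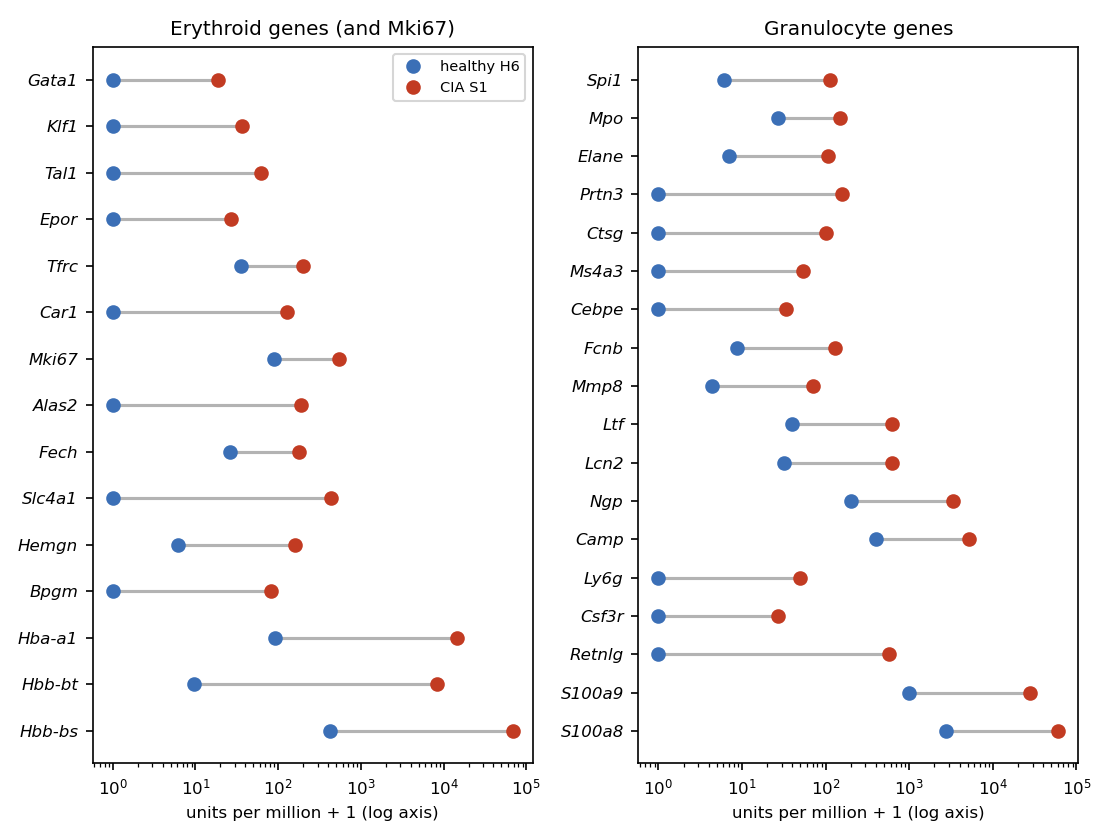
Level of erythroid genes with the proliferation gene Mki67 (left) and granulocyte genes (right) in the healthy (blue) and CIA (red) spleen, in UPM plus 1 on a log axis, ordered roughly from precursor to mature stage. The genes shown are a selection in which each CIA value lies to the right, and values at 1 are genes listed at 0. List members that ran the other way, such as Myb, Slc25a38, Cybb and Il1b, are not shown.

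Granulocyte genes formed the other large group. Secondary granule genes summed to 3096 UPM in the healthy spleen and 15335 in the CIA one, and mature neutrophil genes to 4620.3 and 93756 UPM, a ratio of 20.3. Of 13 secondary granule genes tested 11 were higher, and of 18 mature neutrophil genes 16, beside 13.6% of all genes. In either list 0 were lower, beside 23.3% of all genes. Among those not fixed by the filter, 7 of 9 and 11 of 13 were higher, beside 9.36% of all such genes. S100a8 was at 2779 UPM in the healthy spleen and 60461 in the CIA one, a log2 difference of 4.44. S100a9, its partner in calprotectin, was at 979.9 and 27695 UPM, a difference of 4.81. Both were among the most abundant transcripts of the CIA spleen.

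Among secondary granule proteins, Camp, the cathelicidin precursor, stood at 405 UPM in the healthy spleen and 5195 in the CIA one, Ngp at 201 and 3376, and Ltf at 38.7 and 629. Lcn2, a siderophore binder, stood at 31.0 and 627 UPM, and Hp, haptoglobin, at 17.2 and 534. Lyz2, lysozyme, which monocytes also make, was short of the fold at 1670.4 and 3331 UPM (0.99, or 1.34 with trimmed-mean scaling). Cybb, the catalytic subunit of the phagocyte oxidase, ran the other way without passing the fold, at 339 and 194. Of the mature neutrophil list, Retnlg and Slpi were listed at 0 in the healthy spleen and at 568 and 272 UPM in the CIA spleen. Wfdc21 stood at 54.2 and 1264 UPM, Anxa1 at 91.3 and 803, and Cxcl2, a neutrophil-attracting chemokine, at 59.4 and 356. Il1b and Ccl6 were not past the fold, at 63.7 and 39.5 UPM and at 103 and 73.8 UPM.

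Primary granule genes, the mark of promyelocytes, were present at far lower levels. Prtn3, proteinase 3, and Ctsg, cathepsin G, were listed at 0 in the healthy spleen and at 155 and 101 UPM in the CIA spleen. Mpo stood at 25.8 and 149 UPM and Elane, neutrophil elastase, at 6.03 and 107. Ms4a3 was at 0 and 53.1. The filter fixed the direction of 4 of the 5 members that were higher, so their count is not read as a result. The 2 tested members that were not past the fold, Serpinb1a at 294 and 291 and Nkg7 at 84.4 and 44.2, are also made by other leukocytes. The summed list stood at 411 and 901 UPM. The transcription factors Cebpe and Spi1 stood at 0 and 32.6 and at 5.17 and 113 UPM. Basophil, eosinophil and mast cell genes were not part of this, as 0 of 12 reached the mean of 25 UPM and 9 were listed at 0 in both spleens.

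Stem cell and niche genes gave little to compare. Of 16 stem and progenitor genes 3 were tested, Spi1 higher with its direction fixed by the filter, Sox4 lower at 80.9 and 18.8 UPM, and Runx1 past the fold in neither direction at 50.8 and 83.9. Kit was listed at 0 and 17.7 UPM and Cd34 at 12.9 and 0.647, and Hlf and Mecom were listed at 0 in both spleens. Of 9 niche factors such as Cxcl12 and Kitl in the table, 7 were listed at 0 in both. Among megakaryocyte and platelet genes 8 of 17 were listed at 0 in both, Pf4, platelet factor 4, was at 0 and 7.12 UPM, and the sum of 9836 and 7479 UPM was mostly Tmsb4x, which all cells use. Of 27 proliferation genes tested 20 were higher and 0 lower, beside 13.6% and 23.3% of all genes. Of the 15 not fixed by the filter 8 were higher, beside 9.36% of all such genes. Mki67 stood at 87.0 and 546 UPM, Top2a at 49.1 and 366, and Pclaf at 35.3 and 368. Hmgb2 stood at 883 and 2045 UPM, and Rrm2 at 12.1 and 162. Tubb5 at 424 and 719 and Pcna at 165 and 225 were not past the fold, though Tubb5 was with trimmed-mean scaling, at 1.10.

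Single barcodes show how these levels were spread. A barcode was called globin-rich with at least 10% of its units from globins, and neutrophil-rich with at least 5% from the secondary granule and mature neutrophil lists, so each name is a range of a score and not a cell type. In the CIA spleen 138 of 532 barcodes were globin-rich, 25.9% with an exact 95% interval of 22.3% to 29.9%, and in the healthy spleen 0 of 167 were, with an upper limit of 2.18%. Neutrophil-rich barcodes made up 146 of 532 in the CIA spleen, 27.4% with an interval of 23.7% to 31.4%, and 9 of 167 in the healthy spleen, 5.39% with an interval of 2.49% to 9.98%. The intervals cover counting error only, and since smoothing gives many barcodes the same values they are too narrow. By distinct profiles, 59 of 303 were globin-rich and 66 of 303 neutrophil-rich in the CIA spleen, and 0 of 49 and 4 of 49 in the healthy one. Within 20% of the threshold, on either side, lay 40 CIA barcodes for globins and 17 for the neutrophil lists. Both thresholds were passed by 40 CIA barcodes, with a median total of 5535 units, below the 8370.0 of the barcodes rich in globin alone and the 10007 of those rich in neutrophil genes alone. Doublets were not removed.

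**Figure D3:**
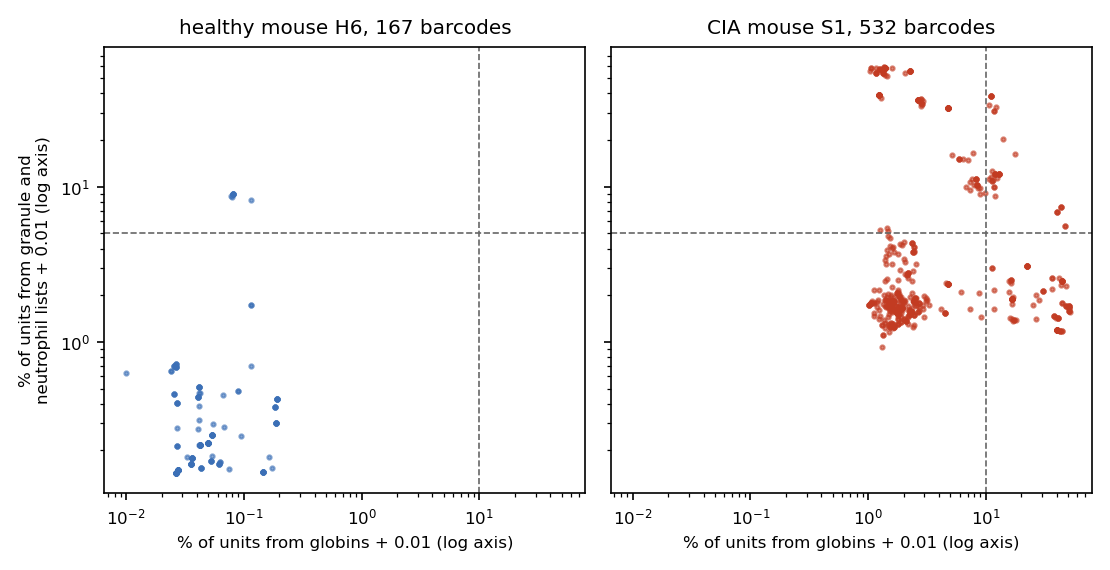
Each point is 1 barcode, with the percent of its units from globins across and from the secondary granule and mature neutrophil lists up, both plus 0.01 on log axes, for the healthy (left) and CIA (right) spleen. The dashed lines mark 10% and 5%, and the whole CIA cloud lies to the right of the healthy one, which has 0 barcodes past the globin line.

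Globin and calprotectin transcripts were not restricted to the rich barcodes. The CIA barcode with the least globin held 10103 UPM, and the healthy barcode with the most held 1809.6 UPM, so the 2 libraries did not overlap. The lowest CIA barcode for mature neutrophil genes held 7920.0 UPM, against a healthy median of 1311 UPM. The healthy maximum was 58534 UPM, so for these genes the libraries overlapped. In the 133 CIA barcodes with the highest B cell identity (25% of the library), a cell type that should make no globin, the globin median was 18281 UPM and the neutrophil median 16529 UPM, while the matching 41 healthy barcodes stood at 399.7 and 2132 UPM. Levels of this size in such barcodes are treated as a floor and are not assigned to B cells. The part of free RNA and of the smoothing across neighbours in this floor was not tested. In the 288 CIA barcodes under both thresholds globins summed to 19482 UPM, against 506 UPM in the 158 healthy ones, close to the level in the barcodes highest in B cell identity. The globin-rich barcodes, at 334368 UPM for the 98 not also neutrophil-rich, stood well above it.

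The other erythroid genes followed the globins across barcodes. The 98 barcodes rich in globin alone, 18.4% of the CIA library, held 63.7% of its haem synthesis units, 65.5% of its red cell membrane units and 59.2% of its late erythroblast units. Slc4a1 stood at 1642 UPM in them and at 99.2 UPM in the barcodes under both thresholds, and Klf1 at 171 and 5.18. They also held the highest level of proliferation genes, 10397 UPM, against 5347 in neutrophil-rich barcodes and 5714 under both thresholds. Mki67 stood at 1675 UPM in them, at 418 in neutrophil-rich barcodes and at 182 under both thresholds. Of the 27 tested proliferation genes 22 were higher in level in them than under both thresholds and 5 were not, such as Pclaf at 290.4 and 487 UPM and Tubb5 at 730.0 and 934. The barcodes were chosen on globin and each profile is summed over neighbours, so genes in one barcode need not come from one cell.

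The later granule genes were concentrated in the neutrophil-rich barcodes, which their own units define. The 106 barcodes rich in neutrophil genes alone held 73.7% of the secondary granule units and 77.5% of the mature neutrophil units, with Camp at 20506 UPM, Ngp at 13483, Ltf at 2318 and Retnlg at 1645. Primary granule genes, which the threshold did not use, stood at 1153 UPM in these and 1104 UPM under both thresholds, and at 243 UPM in the barcodes rich in globin alone. Their members varied in both directions. Mpo stood at 89.3 UPM in neutrophil-rich barcodes and 214 under both thresholds and Ctsg at 69.8 and 158, while Elane stood at 158 and 129, Serpinb1a at 536 and 280.1 and Ms4a3 at 63.6 and 70.9. Fcnb, a secondary granule list member and so part of what the threshold used, stood at 526 UPM in neutrophil-rich barcodes and 15.1 under both thresholds. Slpi, a member of the mature neutrophil list, ran the other way at 202 and 393 UPM. Kit was above 0 only under both thresholds, at 32.7 UPM. These ranges were cut from the same values, and the differences are a description with no test.

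B cell genes differed little between the spleens in sum, and their direction depended on the scaling. B cell identity genes summed to 4714 UPM in the healthy spleen and 3861 in the CIA one, a log2 ratio of -0.29, which became 0.06 with trimmed-mean scaling and -0.03 in barcodes under both thresholds. Of 23 tested, 1 was higher, 4 were lower and 18 were neither, beside 13.6% higher and 23.3% lower of all genes. The median was -0.24 beside -0.22 over all genes. The lower ones were Cd79a and Cd79b, the signalling chains of the B cell receptor, at 386 and 176 and at 600.1 and 286 UPM, Fcmr, the IgM Fc receptor, at 134 and 48.8, and Tnfrsf13c, the BAFF receptor, at 175 and 62.4. With trimmed-mean scaling Cd79a, Cd79b and Fcmr were no longer past the fold, at -0.75, -0.70 and -0.98, and Tnfrsf13c was, at -1.03. The higher one was Cd24a at 53.4 and 485 UPM, a surface protein that erythroid precursors and neutrophils also carry. Ms4a1, which encodes CD20, stood at 481 and 341 UPM, Pax5 at 108 and 90.0, and Ebf1 at 179 and 200.5. Of 9 follicular and marginal zone genes tested, Ccr7 was lower at 135 and 58.5 UPM (-1.08, or -0.77 with trimmed-mean scaling and so not past the fold), while Cr2, complement receptor 2, stood at 152 and 139.

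The constant regions and Jchain summed to 17234 UPM in the healthy spleen and 9777 in the CIA one, and of 12 tested 3 were higher and 4 lower. The higher ones were IgG chains, which B cells make after class switching, and for 2 of them the filter fixed the direction. Of the other 10 genes 1 was higher and 4 were lower, beside 9.36% and 19.1% of all genes not fixed by the filter, so the higher count is near the background. Ighg1 stood at 12.9 UPM in the healthy spleen and 285 in the CIA one, Ighg2c at 12.9 and 129, and Ighg2b at 26.7 and 72.7. Igha, the IgA chain, was lower at 245 and 25.5 UPM, and so were the lambda light chains Iglc1 at 2206 and 163, Iglc2 at 2565 and 848 and Iglc3 at 895 and 267. Ighm, at 2451 and 2195 UPM, and Igkc, at 6986 and 4303, were not past the fold, nor was Ighg3 at 68.9 and 46.6. These lambda genes resemble each other, and reads may be split between them. Ighg1 was highest in the CIA barcodes under both thresholds, at 503 UPM there and at most 41.1 UPM in the other ranges. The barcode with the most held 191552 UPM of constant region genes in the healthy spleen and 249974 UPM in the CIA spleen, against medians of 9229 and 4917. Of 8 plasma cell genes tested other than these, 0 were higher and 1 lower, beside 13.6% and 23.3% of all genes, so the counts are near the background. The lower one was Irf4 at 177 and 57.0 UPM, while Xbp1 stood at 127 and 111. The one germinal centre gene tested, Bcl6, stood at 55.1 and 23.7.

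**Figure D4:**
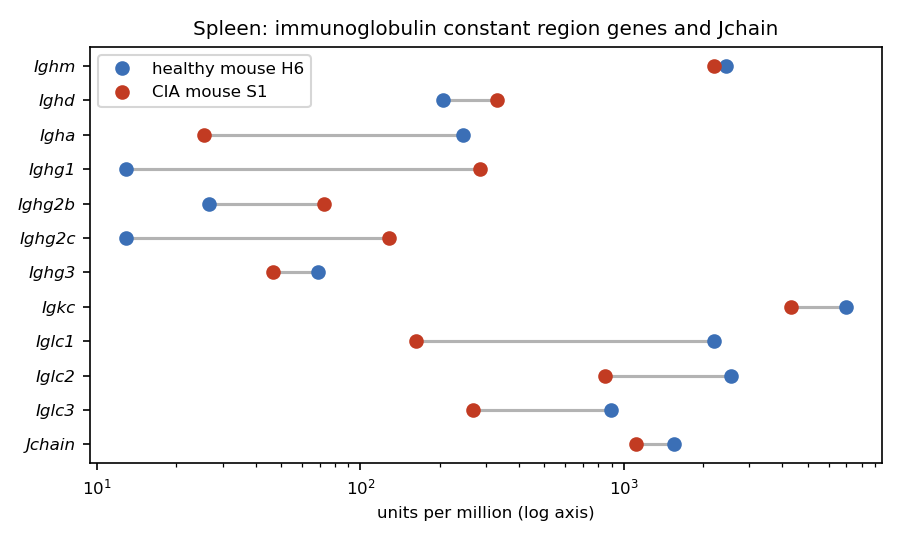
Level of each immunoglobulin constant region gene and Jchain in the healthy (blue) and CIA (red) spleen, in UPM on a log axis, 1 library per state. Ighg1 and Ighg2c lie to the right in the CIA spleen, at 285 and 129, and Igha and the lambda genes to the left.

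T cell genes were near the background of all genes. The receptor complex and signalling genes summed to 1707 UPM in the healthy spleen and 1133 in the CIA one, a log2 ratio of -0.59, or -0.24 with trimmed-mean scaling. Of 12 tested 0 were higher and 4 lower, 1 of them, Skap1, with the direction fixed by the filter. Of the other 11, 3 were lower, with a median of 0.04, beside 19.1% lower and a median of -0.21 over all genes not fixed by the filter. The lower ones were Trbc2 at 433 and 156 UPM, Cd2 at 267 and 89.8, Thy1 at 73.2 and 22.4 and Skap1 at 49.9 and 10.4. Against these, Cd3d stood at 72.3 and 110.1, Cd3g at 55.1 and 65.4 and Trac at 62.9 and 103, none past the fold. Trbc1 and Trbc2 are near-identical copies, so their split is uncertain. Of 16 genes of T cell quiescence and homing 5 were lower, beside 23.3% of all genes, and the median was -0.17. They were S1pr1, the receptor for exit from lymphoid tissue, at 217 and 46.8, Dusp10 at 164 and 58.9, Ms4a4b at 220.4 and 88.9, Lef1 at 61.1 and 23.7 and Ccr7. With trimmed-mean scaling Ms4a4b, Lef1 and Ccr7 were not past the fold, at -0.89, -0.80 and -0.77. Klf2 was not past the fold at 458 and 555 UPM.

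The lymphoid list with the largest difference downward under total scaling was that of natural killer (NK) and cytotoxic cells. It summed to 2632 UPM in the healthy spleen and 1163 in the CIA one, and of 13 tested 6 were lower. Of the 11 not fixed by the filter 4 were lower, with a median of -0.89, beside 19.1% and -0.21 over all such genes. Ccl5, a chemokine of NK and memory T cells, stood at 1056 and 136 UPM, Gzma, granzyme A, at 199 and 54.4, Klrd1 at 195 and 36.7 and Xcl1 at 165 and 43.2. Eomes, a transcription factor of NK cells, was at 44.8 in the healthy spleen and listed at 0 in the CIA spleen. The 1 higher gene was Fcer1g, at 66.3 and 289 UPM, which myeloid cells share. The log2 ratio of the sums was -1.18, and -0.94 in barcodes under both thresholds. With each distinct profile used once it was -1.15, and that of the constant regions and Jchain was larger at -1.40. Antigen presentation genes of MHC class II summed to 13064 and 7488 UPM. Of 10 tested 1 was lower, H2-Oa at 299 and 101, beside 23.3% of all genes. Cd74, the invariant chain, stood at 6180.5 and 3334.

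Genes induced by interferon summed to 1531 UPM in the healthy spleen and 5293 in the CIA one, with 13 of 18 tested higher and 0 lower. Of the 16 not fixed by the filter 11 were higher, with a median of 1.29, beside 9.36% and -0.21 over all such genes. Ifi27l2a stood at 122 and 1685 UPM, Ifitm3, which restricts virus entry, at 93.9 and 704, Rsad2, viperin, at 16.4 and 236, and Irf7 at 18.9 and 166. Isg15 at 184 and 245 and Ly6e at 421 and 595 were not past the fold. In barcodes under both thresholds the list summed to 1495 and 5774 UPM. Within the CIA spleen its members were spread unequally. Rsad2 stood at 755 UPM in globin-rich barcodes and 73.3 under both thresholds and Isg15 at 519 and 148, Ifitm3 at 1360.2 UPM in neutrophil-rich barcodes and 609.7 under both thresholds, and Ifi27l2a was highest under both thresholds at 2123. Ifitm6, which was among the 10 largest differences at 12.9 and 612 UPM, is a myeloid gene and no member of the list.

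Monocyte genes were mixed, 5 of 11 tested higher and 1 lower, beside 13.6% and 23.3% of all genes. Ly6c2, a surface marker of inflammatory monocytes, stood at 25.8 UPM in the healthy spleen and 502 in the CIA one, Ms4a6c at 53.4 and 257 and Cd14 at 25.8 and 102. Cst3 stood at 1095 and 846, Ccr2 at 101 and 131, and Lyz1 was lower at 163 and 66.5 (-1.18, or -0.86 with trimmed-mean scaling). Ly6c2 is also carried by plasma cells and some T cells. Of 6 dendritic cell genes 3 were lower, each with the direction fixed by the filter, led by Siglech, a marker of plasmacytoid cells, at 93.0 and 12.1 UPM. The immediate early and stress genes, which dissociation and thawing can induce, stood at 11871 and 11814 UPM in sum. Of 20 tested 1 was higher and 1 lower, beside 13.6% and 23.3% of all genes. They were Dusp1 at 331 and 793, and Hspa8 at 374 and 169.8 (-1.09, or -0.75 with trimmed-mean scaling).

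The 10 largest differences downward, variable segments and pseudogenes aside, belonged to no single list. They were led by Rpl39l at 332 UPM in the healthy spleen and 0 in the CIA spleen, H4c2 at 232 and 4.96, Gm4925 at 141 and 0 and Iglc1. Also among the 10 were Gins3 at 489.9 and 30.9, Cyp51 at 146 and 8.42, Btbd1 at 94.7 and 3.24 and Nefh at 68.0 and 0. Rpl39l and H4c2 have close relatives, so their reads are uncertain. Ribosomal protein genes as a set, chosen after their values were seen, held 15 lower of 77 tested, 19.5% beside 23.3% of all genes and 12.6% of the other protein-coding genes.

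The mice S1 and H6 gave libraries of 5 other organs with the same suffixes, and they show how other tissues of these animals differed. The share of genes past the fold in either direction was 17.0% in thymus, 22.1% in lymph node, 25.1% in skin, 47.1% in lung and 55.6% in muscle. The H6 library labelled muscle went against its label, with 1 of 4 skeletal muscle markers above 0 and a sum of 48.0 UPM, against 4 of 4 and 1955 UPM in that of S1 and 0 to 159 UPM in the 28 libraries of other organs. Values for muscle rest on that library, and ranges are given with and without them. Libraries of 1 mouse and organ under both suffixes give a scale for differences without a change of mouse or state, with 19.2% for lymph node of S7, 34.5% for lymph node of H4, 44.2% for blood of H4 and 60.2% for joint of S1. In spleen 36.9% of genes were past the fold, within that range. Of the 30 lists, the spleen difference lay outside the range of the 4 same-mouse pairs for 17.

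Globins differed by 7.43 in spleen on the log2 scale with 10 UPM added, by -3.88 to 2.29 in the same-mouse pairs and by -2.63 to 1.52 in the other organs, with or without muscle. Of the 5 erythroid lists 3 lay inside the same-mouse range, whose upper end was the joint pair of S1. They were haem synthesis at 2.40 (up to 4.61 in that pair, from a library listed at 0), red cell membrane genes at 3.46 (up to 5.21) and erythroid factors and receptors at 1.95 (up to 3.85). Late erythroblast genes stood at 3.09 in spleen, at -0.62 to 0.94 in the same-mouse pairs and at -0.95 to 0.60 in the other organs, or -0.71 to 0.60 without muscle. Mature neutrophil genes stood at 4.34 in spleen, at -2.80 to 2.31 in the same-mouse pairs and at -2.06 to 2.69 in the other organs, or -0.25 to 2.69 without muscle, with lung, thymus and lymph node past the fold upward. S100a8 stood at 77.1 UPM in lymph node of H6 and 1459.8 in that of S1, and at 274 and 14046 UPM in lung. Interferon-stimulated genes stood at 1.78 in spleen, between -0.27 and 0.21 in the same-mouse pairs, and past the fold upward in lung, muscle and lymph node but not in skin or thymus. B cell identity, at -0.29, lay inside the same-mouse range of -1.01 to 0.30. Among all 30 libraries the CIA spleen held the highest summed level of haem synthesis, red cell membrane, erythroid factor and late erythroblast genes, and for Slc4a1 and Prtn3 no library was above it. For globins 6 libraries were above it, the highest being a blood library of healthy mouse H4 at 587651 UPM.

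**Figure D5:**
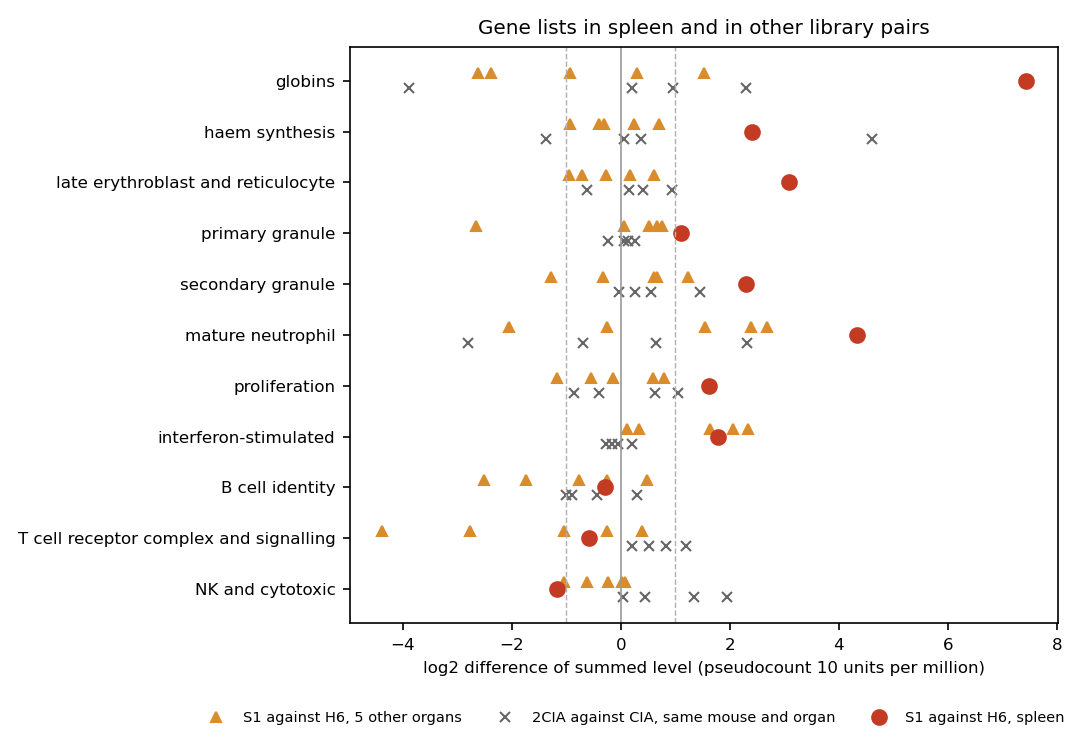
Log2 difference of the summed level of selected gene lists between S1 and H6 in spleen (red circles) and in 5 other organs (orange triangles), and between the 2CIA and CIA libraries of the same mouse and organ (grey crosses), with 10 UPM added and 1 library on each side. The spleen circles for globins, late erythroblast, secondary granule and mature neutrophil genes lie to the right of every triangle and cross, and that for B cell identity lies among them.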

How the data were processed

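The processed table of the series was used, 23013 genes by 8282 barcodes from Seq-Well libraries. By the study's methods the authors demultiplexed with bcl2fastq, aligned with STAR to GRCm38 and counted molecules with Drop-seq tools, kept cells with at least 10000 reads, 400 transcripts and 200 genes, and smoothed profiles over 12 nearest neighbours, while the labels' processing notes list other builds. The deposited values are whole numbers of signal summed over neighbouring barcodes, so they were treated as a signal and not as counts, no count model or counting interval was applied to UPM, and smoothing can spread a gene between barcodes. Units were summed per library and expressed as units per 1000000 (UPM). Genes whose mean reached 25 UPM were compared as log2((CIA + 10)/(healthy + 10)), and at least 2-fold counted as past the fold. A pseudocount of 10 UPM is 11.6 units in the healthy and 46.3 in the CIA library, and it understates the change of low genes. Symbols and coordinates came from a RefSeq table of GRCm38.p6, which matched 21404 rows. There were 0 mitochondrial rows.

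The 2 spleens were the only samples of each state, so no test was made and no n is above 1. Gene lists (30, with 455 of 473 symbols found) and the rules were chosen with earlier results of these data known. Named genes were the 10 largest differences in each direction and, within a list, up to 6 of the highest members past the fold and the most abundant one that was not. Further list members were named for their role after their values were seen. Immunoglobulin and T cell receptor variable segments and pseudogenes were counted but not named. Barcode shares have exact Clopper-Pearson intervals. The fold rule was also run on simulated Poisson counts. These lack the smoothing of the real values, so that run gives no measure of their error. Alternatives were other scalings (a trimmed mean of log ratios, trimming 30% and 5%, a median of ratios, and the total without globins), pseudocounts of 1 and 25 UPM, a mean of 100 UPM, no filter, 4-fold, other barcode thresholds, distinct profiles once, equal weight per barcode and barcodes under both thresholds. Chosen after seeing the data were protein-coding genes only, a CIA library thinned to 1 barcode in 3, and barcodes shared with no other library. Python 3.11.15, numpy 2.4.6, pandas 2.3.3, scipy 1.17.1 and matplotlib 3.10.9 were used. Some genes are not reported here.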

Additional observations from a re-analysis of the deposited data

Results flagged for a closer look

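Between the same mice, S1 and H6, some lists that were past the fold upward in spleen were past it downward in another organ. None of these differences was tested, since each organ had 1 library per mouse. Globins stood at -2.38 in lung and -2.63 in lymph node on the log2 scale with 10 UPM added, from sums of 41.9 UPM in H6 and 0 in S1 for lung and of 4277 and 681 for lymph node. In the libraries labelled muscle the opposite direction was seen for erythroid transcription factors and progenitor receptors (-2.18), primary granule genes (-2.66), secondary granule genes (-1.28), mature neutrophil genes (-2.06) and proliferation genes (-1.17). These values rest on a healthy library that held 1 of 4 muscle markers, at 48.0 UPM against 1955 UPM in that of the CIA mouse, so it goes against its organ label and a mix-up could not be checked. It held the highest secondary granule sum of all libraries, 26858 UPM, with 421 barcodes, and that of the CIA mouse held 54 barcodes.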

How the results depend on the processing

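The counts of genes past the fold depended on the processing. Genes higher in the CIA spleen were 781, and 1199 with trimmed-mean scaling, 1189 with median-of-ratios scaling, 142 at a mean of at least 100 UPM, 2478 with no filter and 247 at 4-fold. Genes lower were 1342, and 881, 887, 452, 2520 and 420 in the same settings, and 578 among protein-coding genes. The log2 ratio of summed globins was 7.46, and 5.27 in barcodes under both thresholds. That of secondary granule and mature neutrophil genes was 3.82, and 2.93 with each distinct profile used once and 2.71 in barcodes under both thresholds. The sign of the B cell sum, -0.29, turned to 0.06 with trimmed-mean and with median-of-ratios scaling. Globin-rich barcodes were 25.9% of the CIA spleen, 31.2% at a threshold of 5%, 14.3% at 20% and 19.5% of distinct profiles. Neutrophil-rich barcodes were 27.4%, and 37.2% at 2.5%, 23.7% at 10% and 21.8% of distinct profiles. The other 42 values stayed within 1.5 times the count or summed ratio given, or within the interval of the share. No paired analysis was possible because each state had 1 library and the result comes from no test. Leaving out a replicate was not possible for the same reason. Depth limits the healthy spleen most, where a gene listed at 0 may have been missed.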

Other observations

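Of the genes the study singled out as regulators, 1 of 5 tested was past the fold in spleen, Ltf, beside 36.9% of all genes. Tnf stood at 79.2 UPM in the healthy spleen and 103 in the CIA one, Tgfb1 at 44.8 and 72.9, Apoe at 41.3 and 47.0 and Il1b at 63.7 and 39.5, while Dsc3 was listed at 0 in both. The list of red pulp and other macrophages, cells that clear old red cells, had 1 of 16 genes at the mean of 25 UPM. It summed to 53.4 and 173 UPM, with Hmox1, haem oxygenase, at 0 and 23.1 and Slc40a1, the iron exporter, at 0 and 16.2. Genes of regulatory and follicular helper T cells were also too low to compare, with 0 of 11 tested and sums of 77.5 and 117 UPM.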
